A study of Mus musculus with 6 samples.

Results

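A set of 10 genes of immune restraint was followed in RAW264.7 cells, a mouse macrophage cell line: the sialic acid binding lectins Siglece, Siglec1, Cd33 and Siglecg, the immunoglobulin-like receptors Pirb, Lilrb4a, Cd300a, Cd300lf and Lair1, and Ptpn6, which encodes the phosphatase SHP-1. They were matched by gene symbol among 56092 symbols, with the transcript values of a symbol summed. Of these 10 members, 9 had reads and were tested, and Siglecg had no read in any library. The libraries came from RAW264.7 lines carrying a lentiviral shRNA. The shNC cells carried the control vector, and the shTrem2 cells carried an shRNA against Trem2, a lipid-sensing receptor of macrophages. Cells of both groups, 3 replicates each, were transduced with a vector that also carried GFP, selected with puromycin, given IL-4 at 20 ng/mL for 24 h and then co-cultured for 24 h with debris of TCMK-1 tubular epithelial cells. The sources used here do not say which of the Trem2 shRNAs the sequenced cells carried, or whether each group came from 1 stable line. The comparison asks how the transcriptome of debris-fed macrophages differs when Trem2 is reduced. Nothing states that the replicates were separate cultures, so p-values measure only the spread between these libraries. In bulk RNA, fewer cells of a type and less RNA per cell cannot be told apart.

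Most of these receptors carry immunoreceptor tyrosine-based inhibitory motifs (ITIMs) in their cytoplasmic tails. When Src-family kinases phosphorylate an ITIM, it recruits SHP-1, SHP-2 or the lipid phosphatase SHIP-1, which oppose activating receptors that signal through ITAM adaptors such as DAP12 (Tyrobp), the partner of Trem2. Siglecs recognise sialic acids on glycans, Pirb binds MHC class I, Lair1 binds collagens, and Cd300a and Cd300lf bind phospholipids exposed on dying cells. Siglec1 (sialoadhesin) belongs to the Siglec family but has no ITIM, and mouse Cd33 differs from human CD33 in its tail, so the name inhibitory does not describe these as it does the others. Several of the receptors have close activating or ITIM-less relatives, among them the Pira genes, Lilrb4b and Cd300c2.

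Sequences upstream of the transcription start are shown for the 3 members with the largest rises, Pirb, Cd300a and Lair1, and for Ptpn6, which fell. They come from RefSeq promoters on GRCm38.p6, where 8 of the 10 members had an entry (Siglec1 and Lilrb4a had none). The letters GAGGAA, the core of a PU box to which the myeloid factor PU.1 can bind, are in capitals on either strand (TTCCTC on the other).

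Pirb, chr7:3720383-3720632, minus strand: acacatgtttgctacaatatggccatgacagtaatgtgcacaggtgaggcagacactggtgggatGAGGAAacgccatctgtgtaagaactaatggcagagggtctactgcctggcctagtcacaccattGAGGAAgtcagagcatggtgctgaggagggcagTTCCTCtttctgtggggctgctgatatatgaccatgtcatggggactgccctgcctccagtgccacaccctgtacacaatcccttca

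Cd300a, chr11:114889791-114890040, plus strand: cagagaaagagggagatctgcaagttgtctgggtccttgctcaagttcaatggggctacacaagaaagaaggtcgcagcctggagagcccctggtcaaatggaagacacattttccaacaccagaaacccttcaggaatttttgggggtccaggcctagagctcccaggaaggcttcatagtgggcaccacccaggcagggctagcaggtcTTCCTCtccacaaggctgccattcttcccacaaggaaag

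Lair1, chr7:4063205-4063454, minus strand: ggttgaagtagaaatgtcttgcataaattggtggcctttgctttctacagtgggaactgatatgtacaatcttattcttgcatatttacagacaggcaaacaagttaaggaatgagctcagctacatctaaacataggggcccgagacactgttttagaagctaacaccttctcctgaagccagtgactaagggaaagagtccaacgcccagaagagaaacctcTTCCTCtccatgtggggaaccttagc

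Ptpn6, chr6:124738710-124738959, minus strand: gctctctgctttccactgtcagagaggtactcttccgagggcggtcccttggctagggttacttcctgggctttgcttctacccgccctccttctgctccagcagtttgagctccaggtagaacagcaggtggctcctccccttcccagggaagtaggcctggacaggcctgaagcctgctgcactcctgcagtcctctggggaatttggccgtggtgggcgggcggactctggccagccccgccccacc

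In the full windows, which run from 250 bases before to 50 bases after the start, 7 of the 8 members had a match, against 28.3% of 32851 RefSeq promoters. A member counted if any of its promoter entries matched, while the background counts each promoter singly. Siglecg had an entry with 2 matches and another with 0. Pirb had matches beginning at -185, -120 and -87 from its start, Cd300a at -39 and Lair1 at -26, and Ptpn6 had none. Siglece had 3 matches, Cd33 had 1, and Cd300lf, whose level was not called different, had 2. Lilrb4a, the member DEG that fell, had no promoter entry. The STAT-type letters TTCNNNGAA, which read the same on both strands, were in none of the 8 members' windows and in 8.3% of all. No other spacing between TTC and GAA was searched. The Lair1 sequence above holds ttctcctgaa, with a wider spacing, so the absence concerns the searched letters only. A match describes letters only, and none of these windows was assayed here.

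The libraries held 15876119 to 18088388 counts assigned to named genes in shNC and 19358125 to 19655165 in shTrem2, so that the limit set by 3 counts lay between 0.153 and 0.189 CPM (counts scaled to a common library total). Trem2 measured 116, 124 and 145 CPM in shNC and 63.8, 62.5 and 79.2 in shTrem2. It was lower in all 3 shTrem2 libraries (log2 fold change -0.87 ± 0.09, SE; false discovery rate [FDR] 3.39e-06 from the quasi-likelihood test of edgeR after Benjamini-Hochberg adjustment, used throughout). On FPKM, which divides by effective length, it went from 178 ± 28.5 (SD, n = 3) to 41.7 ± 4.14, where 3 of its 4 transcripts were lower in every shTrem2 library and the other went from 29.0 ± 3.56 to 47.4 ± 6.33 CPM. Macrophage markers were high, with 10 of 12 at 100 counts or more in every library, and their summed level was 6355 to 7336 CPM in shNC and 11285 to 12609 in shTrem2. Most of that gain was Lyz2 (lysozyme), at 2834 ± 345 and 7270 ± 534 CPM, and without it the sums were 3797 to 4115 and 4534 to 4792. By FDR, of 11 markers tested, 8 were higher and 2 lower (28.8% and 28.6% of all tested genes). The 2 lower were Itgam (CD11b, 471 ± 2.92 to 267 ± 10.3 CPM) and Adgre1 (F4/80, 127 ± 9.16 to 84.4 ± 9.74 CPM). Of 14 tubular epithelial markers, 8 were at 0 everywhere and Aqp1, the highest, reached 50 counts. The neutrophil and mast cell markers reached at most 2 counts. Of 8 B cell markers, Ighm reached 3398 counts and no other exceeded 8. The part of the macrophage marker shift in the results below was not tested.

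The members spanned a wide range of levels. In FPKM, the scale on which genes can be compared, Lilrb4a averaged 679 ± 66.3 in shNC and ranked 170 among 21816 genes with a value above 0. Ptpn6 followed at 286 ± 3.09, then Cd33 at 41.7 ± 1.73, Siglec1 at 13.8 ± 1.04, Cd300a at 11.3 ± 0.939, Lair1 at 4.86 ± 0.447 and Siglece at 2.17 ± 0.481. Cd300lf at 0.950 ± 0.451 and Pirb at 0.737 ± 0.379 had overlapping ranges in shNC, while all other neighbours in the order were separated. In shTrem2 the order changed in 2 places. Cd300a, at 25.2 ± 3.71 FPKM, stood above Siglec1, at 19.8 ± 1.57, and Pirb, at 2.91 ± 0.293, stood above Cd300lf, at 0.880 ± 0.270, and overlapped Siglece at 3.23 ± 0.200. The ratio of Cd300a to Siglec1 was 0.796, 0.859 and 0.819 in the shNC libraries and 1.14, 1.46 and 1.23 in the shTrem2 libraries. These ratios describe the change of order and were not tested.

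**Figure D1:**
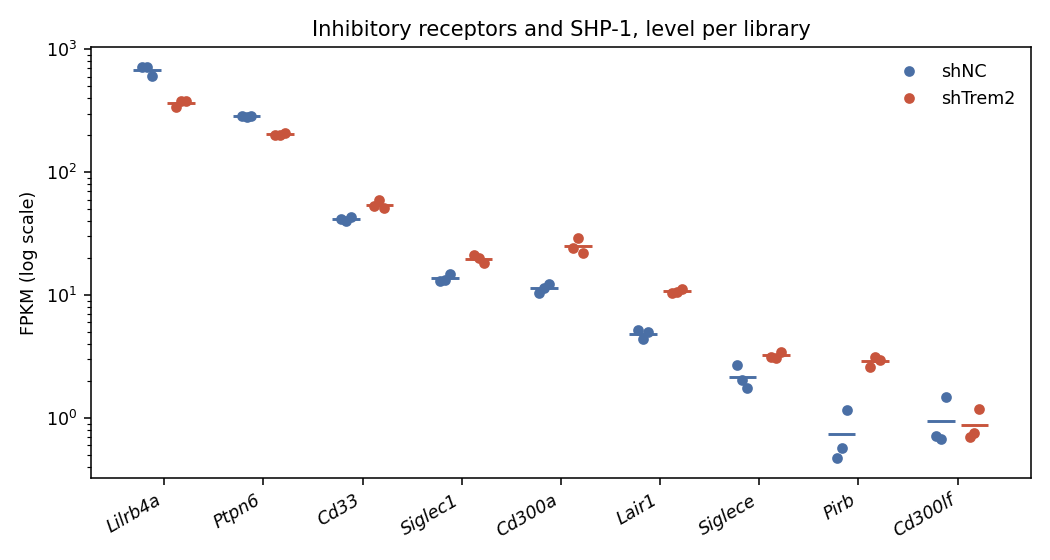
FPKM of the 9 detected members in each library (points) with the group mean (lines), on a log axis, for shNC (blue) and shTrem2 (red). Lilrb4a and Ptpn6 sit lower in shTrem2, and Cd300a, Lair1, Pirb, Cd33, Siglec1 and Siglece sit higher, all with no overlap. Cd300lf overlaps near 1 FPKM.

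DEGs were genes with an FDR under 0.05 and a fold change over 1.5. Of the 9 tested members, 5 were DEGs, against 21.8% of all 13528 tested genes. Pirb, Cd300a, Lair1 and Siglece were higher in shTrem2 (4 members; background 9.46%), and Lilrb4a was lower (1 member; background 12.4%). With the FDR alone, 8 of 9 passed (background 57.4%), 6 of them higher (background 28.8%) and 2 lower (background 28.6%). The groups did not overlap in CPM for 7 of 9, against 63.6% of all tested genes. The members' median log2 fold change was 0.54, while the median over all tested genes was -2.84e-05, with 6763 genes higher and 6765 lower. The members were chosen with earlier results of these data known, so the comparison with all genes is descriptive.

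Lilrb4a (gp49B) is an ITIM receptor of myeloid and mast cells and was the most abundant receptor of the set. It measured 1066, 1084 and 929 CPM in shNC and 563, 639 and 616 in shTrem2, so that every shTrem2 library was below every shNC library. The log2 fold change was -0.73 ± 0.06 (SE; 95% interval -0.86 to -0.59; FDR 3.65e-07), 1.65-fold lower. Its neighbour Lilrb4b (gp49A), which lacks the ITIMs, measured 574, 581 and 485 CPM in shNC and 326, 383 and 341 in shTrem2. That was likewise a fall without overlap (log2 fold change -0.61 ± 0.07, FDR 6.43e-06). The ratio of Lilrb4a to Lilrb4b in FPKM was 2.62 ± 0.0405 in shNC and 2.30 ± 0.130 in shTrem2, with all shTrem2 values lower (exact permutation test, two-sided p = 0.1, the smallest possible). The ratio comes from the same libraries as the falls given above, so the p is no separate evidence.

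The split of reads between these neighbours is uncertain, since 24.1% of the 50-base windows of Lilrb4b transcripts in GENCODE M21 also occur in Lilrb4a. Of the windows of Lilrb4a, 46.7% occur in another gene, chiefly Gm49339 (33.7%). Gm49339 itself had a log2 fold change of -0.36 ± 0.06 (FDR 0.000312). Counted together with Lilrb4b, Lilrb4a still fell, with a log2 fold change of -0.68 and FDR 9.68e-07. That sum leaves out Gm49339, so it does not settle the split of reads with that gene. Of its 14 transcripts, 12 had reads. The leading 3 had log2 ratios of mean CPM of -0.70, -1.13 and -0.89 with no overlap between groups. The next transcript by total counts measured 59.2 ± 3.46 CPM in shNC and 69.9 ± 16.2 in shTrem2, with overlapping groups, and its share of the gene's counts went from 5.79% to 11.5%.

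Pirb, a receptor with several ITIMs that is paired with the activating Pira receptors, had the largest fold change of the members, from a level in shNC that overlapped that of Cd300lf, the least abundant of the others. It measured 1.14, 1.59 and 2.91 CPM in shNC and 7.31, 9.35 and 8.44 in shTrem2, with a clear gap between the groups. Expression was 4.49-fold higher, a log2 fold change of 2.17 ± 0.25 (95% interval 1.62 to 2.71; FDR 7.28e-06). By absolute log2 fold change it ranked 220 of 13528 genes. The counts behind it were 18 to 181 per library. Of its 5 transcripts, the one ranking second went from 0.0750 ± 0.130 to 3.14 ± 1.29 CPM, that is from 2.58% to 36.7% of the gene's counts. With the largest transcript alone the log2 fold change was 1.68 and the call was lost (FDR 0.0835).

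The Pira relatives of Pirb, which signal through Fc receptor gamma chain, were higher as well. Pira12 averaged 0.287 ± 0.245 CPM in shNC and 2.28 ± 0.583 in shTrem2 (log2 fold change 2.99 ± 0.48, FDR 0.000120). Pira1 averaged 0.413 ± 0.194 and 1.63 ± 0.168 CPM (2.02 ± 0.38, FDR 0.000439). Pira2 had at most 3 counts in any shNC library and 22 to 38 in the shTrem2 libraries, at least 8.72-fold higher against the limit of 3 counts per library (FDR 4.68e-05). Reads can be divided among these genes, as 34.0% of the 50-base windows of Pirb occur elsewhere. Pirb summed with its relatives had a log2 fold change of 2.39 (FDR 1.47e-06).

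Cd300a (CLM-8), an ITIM receptor for phosphatidylserine and phosphatidylethanolamine, more than doubled. It measured 41.3, 43.4 and 50.1 CPM in shNC and 102, 119 and 91.8 in shTrem2, the lowest shTrem2 library standing well above the highest shNC library. It was 2.38-fold higher, a log2 fold change of 1.25 ± 0.09 (95% interval 1.05 to 1.45; FDR 1.04e-07). Its largest transcript carried 77.0% of the counts in shNC and 84.9% in shTrem2. Only 3.18% of its 50-base windows occur in another gene, most of them in Cd300c2.

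Cd300lf (CLM-1), the other phospholipid-binding ITIM receptor of this family, was not called. It measured 1.26, 1.24 and 1.05 CPM in shNC and 1.13, 1.499 and 1.73 in shTrem2, and the groups overlapped. The log2 fold change was 0.33 ± 0.30 with a 95% interval from -0.32 to 0.98 (FDR 0.368), so that neither a fall of 0.32 nor a rise of 0.98 could be told from no change at 19 to 34 counts per library. On log2(FPKM + 1) its difference was -0.04.

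Among the other Cd300 genes, Cd300c2, which pairs with activating adaptors, measured 6.99, 7.93 and 7.68 CPM in shNC and 20.6, 22.3 and 18.4 in shTrem2 (log2 fold change 1.47 ± 0.11, FDR 1.17e-07). Cd300e rose from 2.68 to 4.74 CPM (0.85 ± 0.20, FDR 0.00227). Cd300ld passed the FDR with a small rise (0.17 ± 0.06, FDR 0.0258). Cd300lb (-0.01 ± 0.05), Cd300ld3 (-0.09 ± 0.13) and Cd300lg (0.18 ± 0.27) were not called. The sum of the Cd300 genes had a log2 fold change of 0.34 (FDR 1.65e-05), beside 1.25 for Cd300a alone.

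Lair1, an ITIM receptor for collagens, measured 12.4, 13.2 and 10.9 CPM in shNC and 26.8, 26.6 and 26.2 in shTrem2. The shTrem2 libraries lay close together and far above shNC, with a log2 fold change of 1.16 ± 0.09 (95% interval 0.96 to 1.35; FDR 1.50e-07), 2.23-fold higher. Its 2 largest transcripts were both higher without overlap, going from 7.13 ± 0.655 to 12.5 ± 0.872 CPM and from 3.27 ± 1.32 to 10.6 ± 1.13 CPM. Just 0.516% of its 50-base windows occur in another gene.

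**Figure D2:**
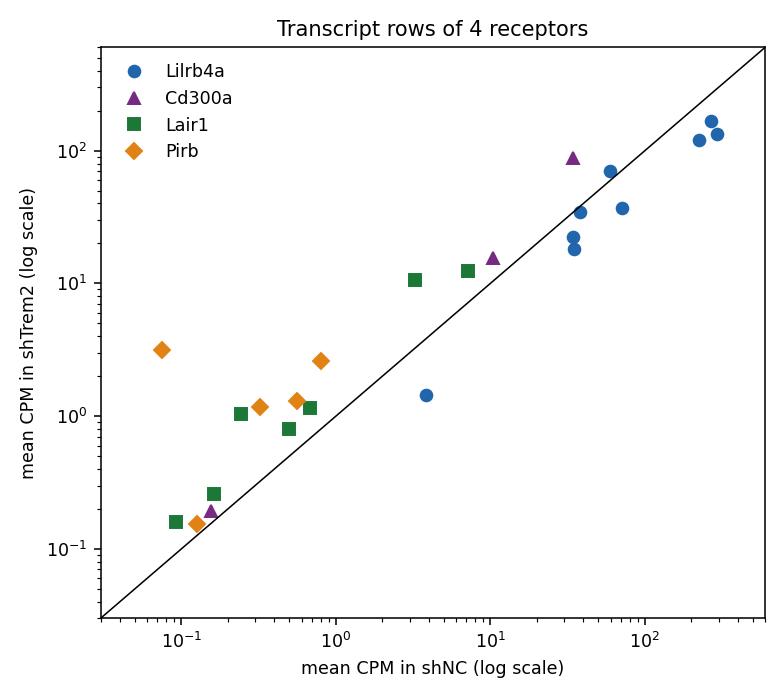
Mean CPM of each transcript of Lilrb4a, Cd300a, Lair1 and Pirb in shNC (x axis) and shTrem2 (y axis), both on log axes, for transcripts above 0.05 CPM in both groups; the line marks equal levels. All transcripts of Cd300a, Lair1 and Pirb shown lie above the line, and those of Lilrb4a lie below it except the one that went from 59.2 to 69.9.

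**Figure D3:**
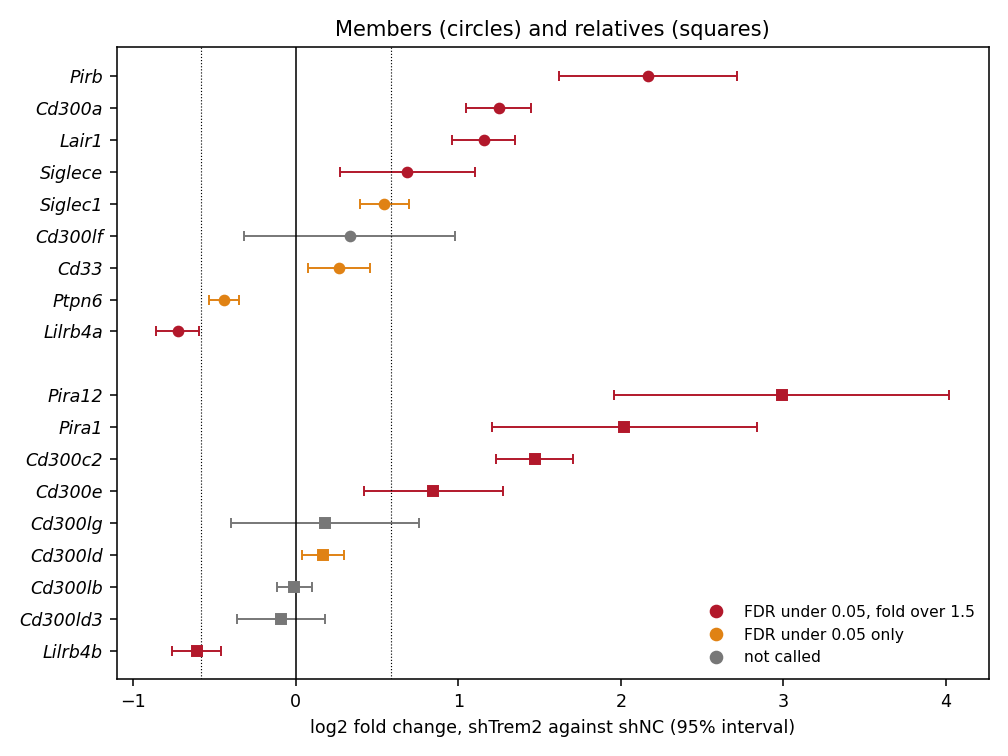
Log2 fold change of shTrem2 against shNC with 95% intervals for the 9 tested members (circles) and their tested Pira, Cd300 and Lilrb4b relatives (squares), coloured by call; dotted lines mark a 1.5-fold change. Pirb, at 2.17, and Lilrb4a, at -0.73, are the extremes of the members. Pira2 is left out because its shNC counts were at the limit.

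Of the Siglecs, Siglece, the main ITIM-bearing Siglec of mouse myeloid cells, was a DEG at a low level. It measured 3.91, 2.75 and 2.71 CPM in shNC and 4.88, 4.75 and 5.04 in shTrem2, a narrow but complete separation. The log2 fold change was 0.69 ± 0.19 (95% interval 0.27 to 1.10; FDR 0.00747), 1.61-fold higher, and the interval reaches well below 1.5-fold. Counts were 49 to 99 per library. On log2(FPKM + 1) over all genes with a value, the adjusted p by limma was 0.109 and the call was lost. Over the tested genes the difference was 0.57 on log2(FPKM + 0.1) and 0.43 on log2(FPKM + 1), both under the fold threshold.

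Siglec1 (sialoadhesin, CD169), an adhesion receptor of tissue macrophages, measured 78.7, 81.3 and 88.7 CPM in shNC and 128, 120 and 106 in shTrem2. The groups did not overlap and the log2 fold change was 0.54 ± 0.07 (95% interval 0.39 to 0.70; FDR 1.80e-05). At 1.46-fold it stayed below the fold threshold, which it passed without shNC replicate 3 (log2 fold change 0.60) or without shTrem2 replicate 3 (0.61).

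Cd33 was the most abundant Siglec and its call was the least firm. It measured 180, 195 and 209 CPM in shNC and 221, 268 and 197 in shTrem2, and shTrem2 replicate 3 fell within the shNC range. The log2 fold change was 0.27 ± 0.09 (95% interval 0.07 to 0.46; FDR 0.0211). The call was lost with DESeq2 (adjusted p 0.131), with the largest transcript alone (FDR 0.0965), and without shNC replicate 1 (FDR 0.107), shNC replicate 2 (FDR 0.0656) or shTrem2 replicate 2 (FDR 0.107). Without shTrem2 replicate 2 the log2 fold change was 0.14. In FPKM the groups were apart, at 41.3, 40.1 and 43.5 against 52.7, 59.6 and 50.9, and the effective length implied by count and FPKM in shTrem2 was 89.8% of that in shNC.

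Siglecg, an ITIM Siglec best known from B cells, was not detected, with 0 counts in all 6 libraries, which allows up to 3 counts or 0.153 to 0.189 CPM. The other Siglec genes gave little signal. Cd22, Siglecf, Siglech and Siglec15 were too low to be tested, Siglec15 averaging 0.0743 ± 0.0644 CPM in shNC and 0.428 ± 0.0323 in shTrem2. Mag, a Siglec of myelin, was tested and not called (log2 fold change 0.09 ± 0.22, FDR 0.765).

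Ptpn6 encodes SHP-1, the phosphatase that most of these receptors recruit. It measured 544, 533 and 543 CPM in shNC and 383, 383 and 399 in shTrem2, with little spread inside either group. The log2 fold change was -0.44 ± 0.04 (95% interval -0.53 to -0.35; FDR 1.10e-06), 1.36-fold lower and thus under the fold threshold. None of its 50-base windows occurs in another gene, and its largest transcript carried 97.2% of the counts in shNC and 96.0% in shTrem2.

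The receptors were also added up, to see what share of the total each one made. The FPKM of the 9 receptors added up to 794, 787 and 683 in shNC and to 457, 509 and 491 in shTrem2, lower in all 3 shTrem2 libraries. Without Lilrb4a the sums were 73.8, 72.6 and 80.1 in shNC and 115, 127 and 110 in shTrem2, higher in all 3. Lilrb4a held 89.9% ± 1.43 of the receptor sum in shNC and 75.9% ± 1.504 in shTrem2. Cd33 went from 5.56% to 11.2%, Cd300a from 1.52% to 5.19%, Siglec1 from 1.84% to 4.09% and Lair1 from 0.648% to 2.21%. These shares exceed the changes in level because the total fell with Lilrb4a. Cd33 itself went from 41.7 ± 1.73 to 54.4 ± 4.61 FPKM. For both sums and for the Lilrb4a share the exact permutation test gave a two-sided p of 0.1, the smallest that 3 against 3 allows. These quantities follow from the member changes given above, with Lilrb4a set apart as the receptor that fell. The p is therefore no separate evidence. The ratio of the receptor sum to Ptpn6 was 2.64 ± 0.232 in shNC and 2.37 ± 0.134 in shTrem2 and overlapped (exact permutation p = 0.2).

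**Figure D4:**
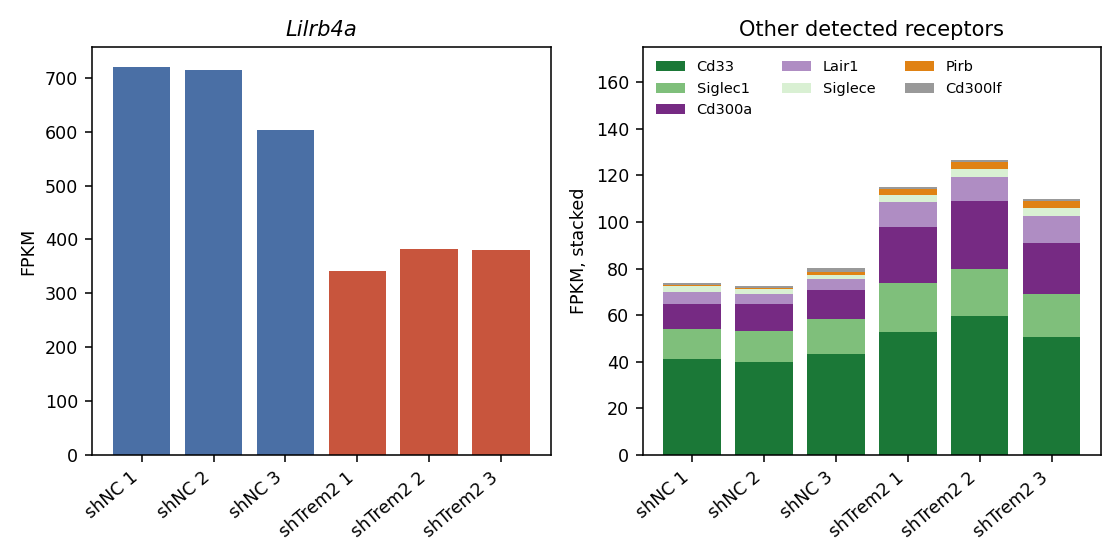
FPKM per library of Lilrb4a (left, bars from 0) and of the other 7 detected receptors stacked (right, bars from 0). Lilrb4a is lower in each shTrem2 library, and the stacks rise from 72.6 to 80.1 in shNC to 110 to 127 in shTrem2, with Cd300a and Cd33 taking most of the height gained.

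Genes around the members were counted from lists. Of 23 other ITIM receptors, 16 were tested, with 5 DEGs higher and 4 lower and a median log2 fold change of -0.19. For this list and those that follow, the shares over all tested genes were 9.46% (DEGs higher) and 12.4% (DEGs lower), or 28.8% and 28.6% by FDR alone. Clec4a2 (DCIR), a C-type lectin, averaged 0.132 ± 0.125 CPM in shNC, from 1 to 5 counts per library, and 3.90 ± 0.545 in shTrem2 (FDR 4.20e-07). Its shNC mean lay under the 3-count limit, while shNC replicate 3, at 0.276 CPM, lay above it. With 7 counts in all of shNC and 228 in shTrem2 the depth-scaled ratio was 28.8, with an exact 95% binomial interval of 13.8 to 72.5 that covers counting error only. Clec12a, a C-type lectin that senses uric acid crystals, went from 32.01 ± 5.82 to 72.0 ± 3.43 CPM (1.20 ± 0.10, FDR 2.51e-07). Cd5 fell from 11.8 ± 0.695 to 1.23 ± 0.315 CPM (-3.22 ± 0.19, FDR 9.82e-09) and Pdcd1 (PD-1) from 13.1 ± 1.87 to 3.11 ± 0.466 (-2.04 ± 0.16, FDR 1.91e-07). Sirpa, the CD47 receptor that also recruits SHP-1, was named after its values were seen: it rose from 181 ± 12.5 to 400 ± 5.68 CPM (1.18 ± 0.05, FDR 1.12e-09).

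Of 26 activating counterparts and their adaptors, 13 were tested, with 5 DEGs higher (Pira2, Pira12, Pira1, Cd300c2 and Cd300e), 1 lower (Lilrb4b) and a median of 0.32. In the list of inhibitory effectors, phosphatases, Src-family kinases and adaptors that act behind ITIMs, 22 of 23 genes were tested, with 2 DEGs higher, 2 lower and a median of 0.00137. Src rose (1.46 ± 0.23, FDR 9.41e-05) from 1.40 to 3.80 CPM, and Lck rose (0.62 ± 0.19, FDR 0.0117). The adaptor Stap2 fell (-1.36 ± 0.14, FDR 2.21e-06), and so did Inppl1, which encodes the lipid phosphatase SHIP-2 (-0.65 ± 0.06, FDR 1.39e-06). The phosphatases did not all fall. Inpp5d (SHIP-1) averaged 158 ± 0.929 CPM in shNC and 187 ± 7.03 in shTrem2. Ptpn11 (SHP-2) averaged 145 ± 1.30 and 142 ± 4.19 CPM, with overlapping groups. The ITAM cascade, all 19 genes tested, held 1 DEG, Vav2, a guanine exchange factor, which fell (-0.62 ± 0.09, FDR 7.94e-05), and its median was -0.04.

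Ligands were counted in the same way. Of 31 genes of sialic acid synthesis and transfer, 19 were tested, with 3 higher and 13 lower by FDR (28.8% and 28.6% of all tested genes), 1 DEG each way (9.46% and 12.4%) and a median of -0.27. St6gal1, which adds alpha-2,6-linked sialic acid to N-glycans, rose from 19.9 ± 1.04 to 41.1 ± 5.11 CPM (1.08 ± 0.09, FDR 3.03e-07). St3gal5, which makes the ganglioside GM3, fell from 102 ± 4.58 to 56.6 ± 4.54 CPM (-0.81 ± 0.06, FDR 1.79e-07). Of 23 protein ligands 12 were tested, with 2 DEGs each way and a median of -0.23. Cd24a, a ligand of Siglec-G, fell from 4.96 ± 0.662 to 0.599 ± 0.111 CPM (-3.01 ± 0.26, FDR 4.20e-07), in cells without Siglecg reads. H2-D1, an MHC class I heavy chain of the kind Pirb binds, fell from 1344 ± 36.8 to 836 ± 17.3 CPM (-0.65 ± 0.04, FDR 3.73e-08). Omg, a myelin ligand of Pirb (0.94 ± 0.37, FDR 0.0432), and Angptl2, an angiopoietin-like ligand of Pirb (0.69 ± 0.12, FDR 0.000276), were higher. Omg was near the limit of detection, with 9 to 12 counts per library in shNC and 15 to 26 in shTrem2.

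**Figure D5:**
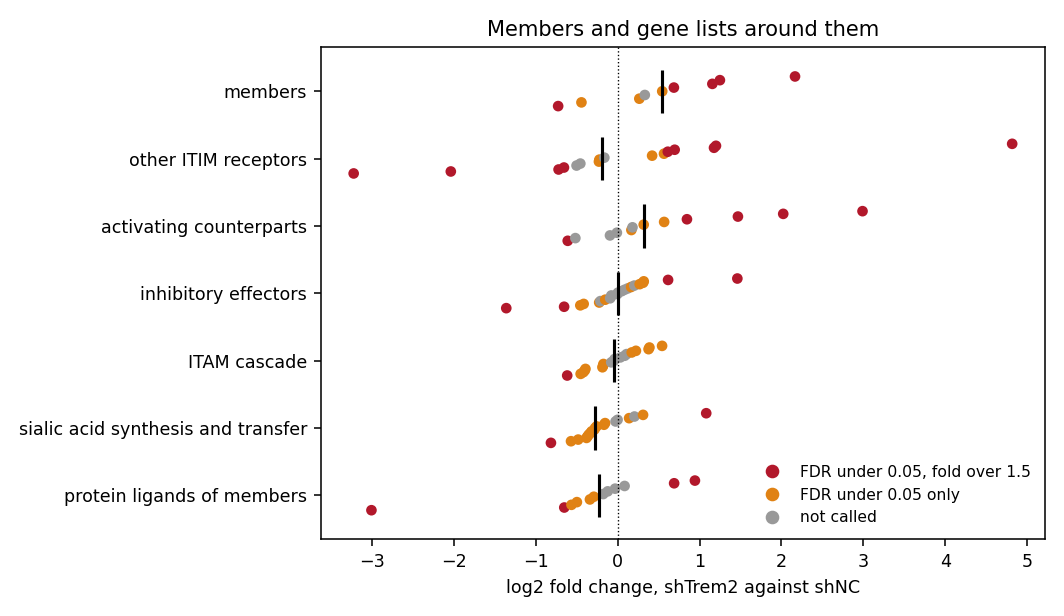
Log2 fold change of each tested gene (points, coloured by call) in the members and in 6 lists of genes around them, with the list's median as a black line; Pira2 is left out of the points because its shNC counts were at the limit, and the fitted value of Clec4a2, the rightmost point, rests on 7 shNC counts. The members' median is 0.54, while inhibitory effectors and the ITAM cascade centre near 0 and sialic acid genes at -0.27.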

How the data were processed

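RNA-seq was analysed for RAW264.7 cells of 2 groups, shNC and shTrem2, taken from the labels. Reads were trimmed with fastp and aligned with HISAT2 in orientation-aware mode, and transcripts were assembled with StringTie. The submitters' processing notes name the build GRCm39. The authors deposited estimated counts per transcript, not scaled for depth or length, and FPKM per gene, which are scaled for library total and effective transcript length. A further column pair with the authors' group means was not used.

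Values of a symbol's transcripts were added and the sums rounded. Transcripts lacking a symbol (0.908% to 1.12% of counts) entered neither library sizes nor tests. CPM are counts scaled to a common total of named counts. Genes were tested with edgeR 4.0.16 in R 4.3.3 (TMM, filterByExpr, quasi-likelihood F test, no covariates) over 13528 genes, with Benjamini-Hochberg adjustment. The SE of a log2 fold change was its absolute value divided by the square root of F. DEGs had an FDR under 0.05 and a fold change over 1.5. A count of 0 allows up to 3 counts, and this limit covers counting error only. The script was tested on simulated counts. Replicates of a group differed by more than sampling noise in each pair (chi-square per degree of freedom 2.56 to 9.92).

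The members and gene lists were chosen with earlier results of these data known. Named genes were every member, their tested Pira, Lilr and Cd300 relatives, the other listed Siglec genes and Trem2. In each list up to 4 DEGs with the largest absolute log2 fold change were also named. Relatives with too few counts to be tested, such as Lilra6 and Cd300c, were not described. Gm49339, cell type markers, Sirpa, Inpp5d and Ptpn11 were named outside this rule. Shared sequence was counted as 50-base windows of GENCODE M21 transcripts, a release on GRCm38, found in another gene. Alternatives were DESeq2 1.42.0, limma 3.58.1 (voom on counts, and the trend method on FPKM with a pseudocount of 0.1 or 1 before taking log2), other normalizations, filters and thresholds, the largest transcript alone, sums with relatives, the replicate number as a block, and each library left out.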

Additional observations from a re-analysis of the deposited data

How the results depend on the processing

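Across the alternatives, Pirb, Cd300a, Lair1, Siglece and Siglec1 kept a higher level in shTrem2, and so did Cd33 (0.14 to 0.38 on the log2 scale), while Lilrb4a and Ptpn6 kept a lower one. The direction of Cd300lf reversed in limma-trend, to -0.0529 on log2(FPKM + 0.1) and -0.0382 on log2(FPKM + 1), in the latter both over the tested genes and over all genes above 0. Tested against 1.5-fold with glmTreat, 1515 genes and 4 members (Pirb, Cd300a, Lair1 and Lilrb4a) passed the FDR. With a fold change over 2, there were 1339 DEGs and 3 of them were members (Pirb, Cd300a and Lair1). With 1 library left out in turn there were 2789 to 3105 DEGs, 5 to 6 member DEGs and 7 to 8 members under the FDR. In the main fit 21.8% of the 13528 tested genes were DEGs and 57.4% passed the FDR. These shares were not computed for the alternatives. Replicate numbers did not pair the libraries (correlations of same-numbered deviations -0.00299, -0.0123 and -0.0131). With the replicate block there were 2911 DEGs, 5 of them members, and it changed no member's call. Library size scaling alone put 39.0% of DEGs higher, against 43.4% with TMM. The cause of these differences was not tested. Cd300lf, Siglece and Pirb, with 18 to 181 counts per library, are the members whose precision depth limits most.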
